A study of Homo sapiens with 6 samples.

Results

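Gene expression was compared between the 2 arrays labelled shGATA3 and the 2 control arrays of a leukaemia cell line, which were 4 of the 6 arrays of the series. The other 2 arrays came from the same line with a hairpin labelled shTCF1, after TCF1, the protein that TCF7 encodes. They served as a second hairpin beside named genes, counts of called genes and the histone list. Their spread entered the main fit, though not the fit to the 4 arrays compared alone. The cells were RPMI-8402, an established line of human T-cell acute lymphoblastic leukaemia known for a translocation that activates LMO1, and lentivirus carried the control, shGATA3 or shTCF1. All groups were harvested 48 h after transduction, sorted for EGFP+ cells, and labelled with Cy3 from 100 ng of total RNA. Each group is therefore 1 leukaemic line early after transduction, with 1 hairpin label per group, and the study's legends call the replicates independent experiments. P-values measure the spread between these few arrays. In sorted bulk cells, fewer cells of a type and less RNA per cell cannot be told apart.

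GATA3 is a zinc-finger transcription factor that T-cell precursors need throughout thymic development, and natural killer (NK) cells can arise from the same precursors. Notch signalling opens the T-cell programme through the DNA-binding protein RBPJ, and its direct targets include HES1, DTX1, NRARP and the surrogate receptor gene PTCRA. A short hairpin RNA acts on the messenger RNA of its target, so a probe for GATA3 is the first check of the label.

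The GATA3 probe was nearly flat. It read 9.54 and 9.56 on control replicates 1 and 2 and 9.46 and 9.55 on shGATA3 replicates 1 and 2, as normalized log2 intensity, so that the groups overlapped. The difference, shGATA3 minus control, was -0.05 (SE 0.105, limma adjusted p = 0.793), and scaling the arrays to their 75th percentile instead gave 0.000468. The 2 shTCF1 arrays read 9.76 and 9.90, and the difference from them was -0.33 (adjusted p = 0.135). This probe therefore does not show the lower GATA3 that the label would lead one to look for, and every direction given here is that of the arrays labelled shGATA3. TCF7 read 13.96 and 13.91 on control arrays and 14.26 and 14.27 on shGATA3 arrays, a difference of 0.33 (adjusted p = 0.102).

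The arrays measured the RNA of T-lineage cells with similar breadth. Of 57176 probes, 51.0% to 56.2% per array stood well above background, 0 spots were saturated, and the number of arrays limits the precision. Of 13 T-lineage markers tested, 11 were well above background on all 4 arrays, CD3D, LCK, TCF7 and BCL11B among the brightest, while CD1A was dim on both control arrays and RAG1 on both shGATA3 arrays. Before normalization the upper quartile of intensity reached 278 ± 12.5 (SD, n = 2) for control and 176 ± 0.802 (SD, n = 2) for shGATA3 arrays, a ratio of 1.59, while the spike-in transcripts gave a ratio of 0.865. Both control arrays lay in one column of the slide and all hairpin arrays in the other, so that slide column and hairpin cannot be told apart.

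Across all genes the 2 groups differed over a broad part of the array. Of 30841 tested probes 2211 (7.17%) passed limma at an adjusted p below 0.05, 937 higher and 1274 lower on the shGATA3 arrays, and the higher share of these calls was 42.4%, or 53.8% with 75th percentile scaling and 53.4% with quantile normalization. With 1 probe per gene 1041 of 14417 genes (7.22%) were called, 420 higher (2.91%) and 621 lower (4.31%). At least 2-fold changes made up 107 of the higher and 196 of the lower genes, and 23 and 12 changed at least 4-fold. Of the 420 higher genes 168, and of the 621 lower genes 200, were also called between the shGATA3 and shTCF1 arrays. In that contrast, which shares the shGATA3 arrays, 3.86% of all genes were higher and 2.80% lower. The median over all tested genes was -0.03, so that lists can be read against a background close to 0. Counts of calls in a list are to be read against the 2.91% higher and 4.31% lower of all tested genes.

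These calls depended on single arrays. Leaving out control replicate 1, control replicate 2, shGATA3 replicate 1 or shGATA3 replicate 2 gave 209, 330, 481 and 266 called genes. The log2 matrix that the authors deposited, in which some columns follow another array than the one they are named for, gave 0 calls and 1799 probes at an unadjusted p below 0.05. The same order of left-out arrays is used below wherever 4 counts follow a list. A gene is said to have held where it was called in all 4 of these fits, each of which leaves 1 group with a single array that is assumed to vary like the other groups, shTCF1 included. A fit to the 4 arrays compared alone called 765 genes. Of the 154 called genes named in the text, 66 held and 52 were called in none of the 4 fits. The size of many differences also depended on the background correction together with a constant of 50 added to the intensities. These 2 steps of the normexp setting were not tested apart. With normexp and quantile normalization 52 of the 154 differences were more than 1.5 times smaller, by up to 3.48 times, against 1 (HES4) with quantile normalization and 0 with 75th percentile scaling. At an unadjusted p below 0.05 the counts over all genes would be 1618 higher and 2299 lower.

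**Figure D1:**
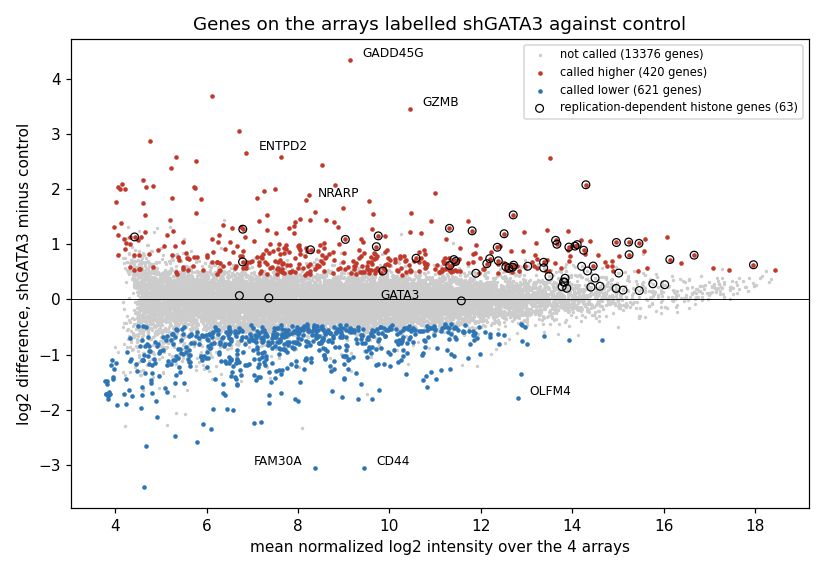
Each point is 1 of 14417 tested genes, placed by its mean normalized log2 intensity over the 4 arrays (x axis) and its log2 difference, shGATA3 minus control (y axis). Red and blue mark the 420 genes called higher and the 621 called lower, open circles the 63 replication-dependent histone genes, which lie almost all above 0, and GATA3 itself lies near 0.

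GADD45G and GZMB rose most among genes detected on all 4 arrays. GADD45G, which encodes a stress-induced activator of MAP kinase signalling, read 6.83 and 7.12 on the control arrays and 11.27 and 11.36 on the shGATA3 arrays, a 20.2-fold difference (log2 4.34, SE 0.188, adjusted p = 0.00124). It was lowest on the shTCF1 arrays, at 5.08 and 5.56. GZMB, the cytotoxic protease granzyme B, read 8.78 and 8.68 against 12.16 and 12.22 (log2 3.46, SE 0.106, adjusted p = 0.000838), with 6.69 and 6.56 on the shTCF1 arrays. For both genes the shGATA3 arrays stood apart from the other 4 arrays by far more than any pair of replicates differed.

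A transcription factor and an ectonucleotidase followed. ZNF750, an epidermal differentiation factor, rose by 3.05 (5.51 and 4.87 against 8.39 and 8.10), and ENTPD2, which hydrolyses extracellular ATP, rose by 2.66 (5.55 and 5.54 against 8.22 and 8.18). Both genes held in every fit without 1 array, and ZNF750 differed by 1.88 with normexp.

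Several of the other large rises were genes better known outside lymphocytes. The glutamate receptor genes GRM8 and GRID1 rose by 2.43 and 2.04, the synaptic adhesion gene NLGN4X by 1.97, and the phosphodiesterase gene PDE9A by 1.65. IGFBP5, which binds insulin-like growth factors, rose by 2.02, AFAP1L2, an adaptor of SRC signalling, by 2.01, and ITGB5, an integrin beta chain, by 1.83. Among immune and Wnt regulators, TNFSF4, the ligand of the costimulatory receptor OX40, rose by 1.83, ANXA1 by 1.89, and NKD2, a negative regulator of Wnt signalling, by 1.93. ANXA1 was also 1.59 higher on the shTCF1 arrays than on control, and the 2 hairpin groups differed by 0.29 (limma adjusted p = 0.303). With normexp GRID1, IGFBP5 and TNFSF4 differed by 0.955, 0.99 and 0.89. All 10 of these genes were called in every fit without 1 array (adjusted p up to 0.0474).

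Of the 20 largest rises 16 were also called against the shTCF1 arrays and 4 were not. 3 of the 20 largest rises rested on particular arrays. ECRG4 (log2 2.59) was not called without shGATA3 replicate 2 (adjusted p = 0.0688), FAM177B (2.08) not without shGATA3 replicate 2 or control replicate 1 (up to 0.107), and SNORA28 (1.79) not without either control array (up to 0.0612).

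CD44 and FAM30A fell most among genes detected on all 4 arrays. CD44, the hyaluronan receptor carried by early thymic progenitors and by activated T cells, read 11.09 and 10.87 on the control arrays and 7.97 and 7.88 on the shGATA3 arrays, an 8.29-fold fall (log2 -3.05, SE 0.116, adjusted p = 0.000916). The shTCF1 arrays read 11.62 and 11.57, above the controls. FAM30A, a noncoding transcript of stem and early B-lineage cells, read 9.89 and 9.90 against 6.87 and 6.81 (log2 -3.05, adjusted p = 0.000916), and both of its probes were called. Here too the shGATA3 arrays alone were low.

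Regulators of blood development stood among the other large falls. HHEX, a homeobox factor of haematopoietic progenitors, read 10.19 and 10.23 against 8.43 and 8.38 (log2 -1.80), LYL1, a basic helix-loop-helix factor related to TAL1, 9.86 and 9.86 against 8.04 and 8.13 (-1.77, adjusted p = 0.0018), and the corepressor CBFA2T3, also called ETO2, 8.84 and 8.85 against 7.06 and 7.01 (-1.81). CXXC5, a CXXC zinc-finger regulator of Wnt signalling, fell by 1.84 and OLFM4, a granule glycoprotein, fell by 1.78. These 5 genes held, and in all 5 both shGATA3 arrays lay below both arrays of the shTCF1 group as well.

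Other genes that fell and held were RAB7B, a GTPase of late endosomes (-2.25), the mitochondrial malic enzyme ME3 (-2.23), the protocadherin PCDH8 (-2.22), NAV3 (-1.99), FHDC1 (-1.87), PLEKHA6 (-1.81), the basement membrane proteoglycan HSPG2 (-1.73), the cadherin CDH4 (-1.70) and GPAT2 (-1.65). HOXB5 (-2.003) was not called without control replicate 1 (adjusted p = 0.0541), and SCN2B (-1.69) not without either control array (up to 0.108). With normexp RAB7B, ME3, PCDH8, NAV3, HSPG2, HOXB5 and SCN2B differed by -1.18, -1.38, -1.42, -1.20, -0.92, -1.10 and -0.94. PDK1 is described with the hypoxia genes. On the shTCF1 arrays NAV3 and PCDH8 differed from control by -1.96 and -1.66. Between the 2 hairpin groups they differed by -0.04 and -0.55 (limma adjusted p = 0.919 and 0.0794). Of the 20 largest falls 17 were also called against shTCF1, and 3 were not, namely NAV3, PCDH8 and PDK1.

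**Figure D2:**
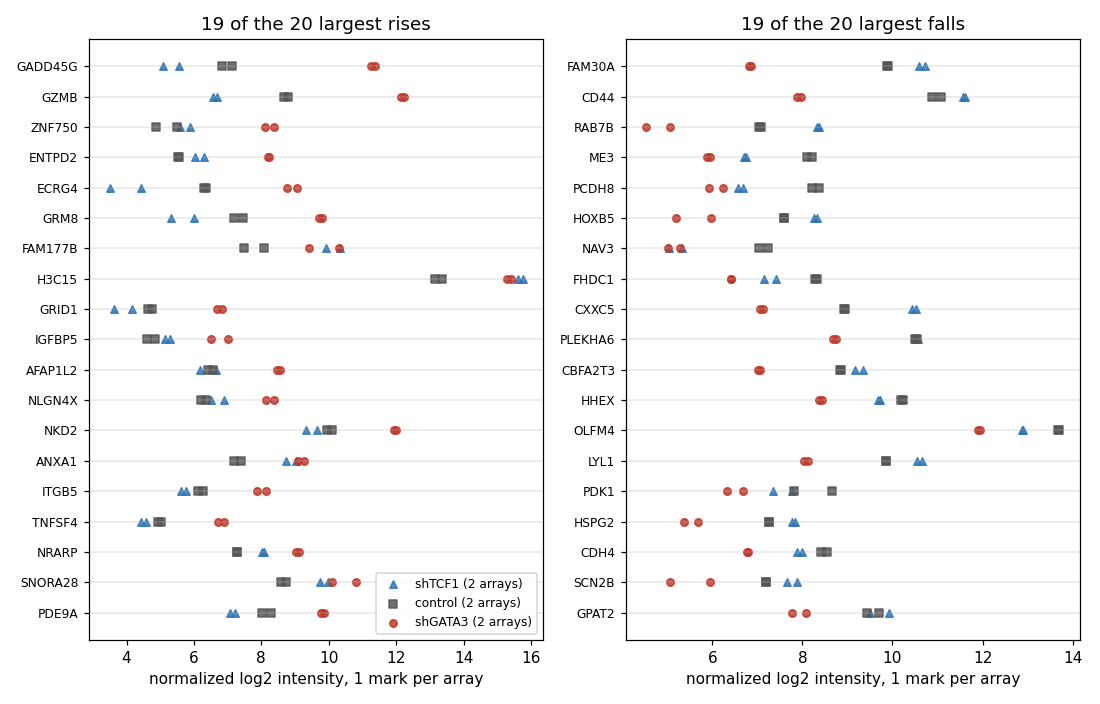
Normalized log2 intensity (x axis) of 19 of the 20 genes that rose most and 19 of the 20 that fell most on the shGATA3 arrays among genes detected on all 4 arrays, with 1 mark per array for control, shGATA3 and shTCF1 (2 arrays each). Within their lines the shGATA3 marks of GADD45G and GZMB lie to the right of all others and those of CD44 and FAM30A to the left.

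Cytotoxic genes did not move as a group. The 14 tested genes for granzymes and granule proteins had a median of -0.09, with 5 higher and 2 lower at an unadjusted p below 0.05. Of the 14 genes 3 rose, the only calls, or 21.4% against 2.91% of all genes. Beside GZMB these were LYST, which shapes lysosome-related granules (5.71 and 5.76 against 6.80 and 6.75, log2 1.04), and SRGN, the granule proteoglycan serglycin (8.03 and 7.94 against 9.04 and 8.90, log2 0.99). GZMB and LYST held, and SRGN was lost without any 1 of the 4 arrays (adjusted p up to 0.0611). GZMH, the neighbouring granzyme, was 1.43 higher without a call (adjusted p = 0.0896). The limma fit to the 4 arrays compared alone called it (adjusted p = 0.0146), as did 1 of 3 other scalings. GZMM and GZMA differed by -0.09 and -0.33 without a call, GZMA being dim on both shGATA3 arrays.

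Among NK receptors and adaptors 3 of 17 rose (17.6%, against 2.91% of all genes), the only calls (median 0.11). NCAM1, which encodes the NK marker CD56, read 7.63 and 7.47 against 9.03 and 8.95 (log2 1.43, SE 0.116, adjusted p = 0.00416) and held. CD300A, an inhibitory receptor, rose by 0.97 and HCST, which encodes the signalling adaptor DAP10, by 0.69, and both were lost without any 1 of the 4 arrays (adjusted p up to 0.122 and 0.104), so that the 4 counts were 1 each. NCR3, a natural cytotoxicity receptor, differed by 0.12 (adjusted p = 0.553).

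Of the transcription factors of NK and innate lymphoid cells, NFIL3 and TOX, both needed for NK cells or innate lymphoid cells to form, differed by 0.31 and -0.24 with no call.

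Notch target genes split in both directions. Of 24 tested, 6 were higher and 4 lower, against 2.91% and 4.31% of all genes, with a median of 0.16. The list joins textbook targets with genes chosen more loosely, TASP1 and CD300A among the 6 higher ones, and CD300A is also counted with the NK receptors, so that it is no independent choice of genes. The RBPJ protein binds a short core, and the promoters of the 3 called HES and HEY genes and of NRARP are shown for the 250 bases before the annotated start, with the core (TGGGAA or its reverse complement TTCCCA) in capitals. They were taken from RefSeq on GRCh38.p14, and the genes are HES1 at chr3:194135898-194136147 on the plus strand, and HES4 at chr1:1000098-1000347, HEYL at chr1:39639644-39639893 and NRARP at chr9:137302272-137302521 on the minus strand.
HES1: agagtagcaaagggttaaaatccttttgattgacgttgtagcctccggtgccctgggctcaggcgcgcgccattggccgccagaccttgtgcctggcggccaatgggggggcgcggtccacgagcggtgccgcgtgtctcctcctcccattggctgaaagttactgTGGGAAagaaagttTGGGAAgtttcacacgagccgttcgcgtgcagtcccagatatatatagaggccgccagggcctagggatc
HES4: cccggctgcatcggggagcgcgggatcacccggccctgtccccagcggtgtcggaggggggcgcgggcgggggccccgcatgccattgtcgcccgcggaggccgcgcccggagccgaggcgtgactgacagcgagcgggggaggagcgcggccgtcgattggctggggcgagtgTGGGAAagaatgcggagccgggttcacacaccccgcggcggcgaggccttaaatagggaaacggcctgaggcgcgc
HEYL: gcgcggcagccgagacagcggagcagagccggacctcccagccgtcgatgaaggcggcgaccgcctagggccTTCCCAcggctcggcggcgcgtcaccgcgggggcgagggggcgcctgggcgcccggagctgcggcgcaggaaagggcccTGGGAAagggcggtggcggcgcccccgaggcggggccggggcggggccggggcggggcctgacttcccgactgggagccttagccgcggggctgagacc
NRARP: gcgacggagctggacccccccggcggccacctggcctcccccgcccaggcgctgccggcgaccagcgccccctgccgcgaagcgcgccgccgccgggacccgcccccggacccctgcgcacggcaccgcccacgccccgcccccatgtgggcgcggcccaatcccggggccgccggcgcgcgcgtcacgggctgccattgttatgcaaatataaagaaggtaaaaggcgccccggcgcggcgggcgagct
In HES1 the 2 cores begin 84 and 70 bases before the start, HES4 has 1 at 76, HEYL has 2 at 178 and 99, and NRARP has 0 in this window. Of the 10 called genes of the list 8 were matched to a promoter (DTX1 and MYC were not), and 3 of the 8 held a core, against 21.1% of all 27305 promoters. The GATA motif, searched as AGATAA or as AGATAG or, with a leading T, as TGATAA or as TGATAG on either strand, was in 2 of the 8 (TASP1 and LYL1) and in 22.9% of all. These matches describe letters only.

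NRARP, which encodes a feedback inhibitor of Notch, rose from 7.28 and 7.27 to 9.12 and 9.03 (log2 1.79, SE 0.0965, adjusted p = 0.00157) and held. DTX1, a Notch-associated ubiquitin ligase, read 10.40 and 10.32 against 11.24 and 11.14 (log2 0.82, adjusted p = 0.0162). HES4, with 1 core, rose by 0.58, whereas HES1 and HEYL, each with 2, fell by 0.58 and 0.66. The best-known targets of the pathway thus lay on both sides of 0.

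The receptor genes NOTCH3 and NOTCH1 were higher by 0.60 and 0.50, the only 2 of 25 genes for Notch receptors, ligands and processing enzymes that were called. TASP1 rose by 0.62, and MYC and LYL1 fell by 0.73 and 1.77. Only NRARP and LYL1 held among the genes of the target list. Without 1 array the targets gave 1, 1, 1 and 1 higher and 1, 1, 2 and 1 lower calls, the receptors and enzymes 0 in each direction in all 4 fits, and DTX1 reached an adjusted p of 0.081, HES1 0.185, HEYL 0.136, TASP1 0.161, NOTCH3 0.191 and NOTCH1 0.189. HES1 and HES4 each also lost the call under 1 of 3 other scalings.

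**Figure D3:**
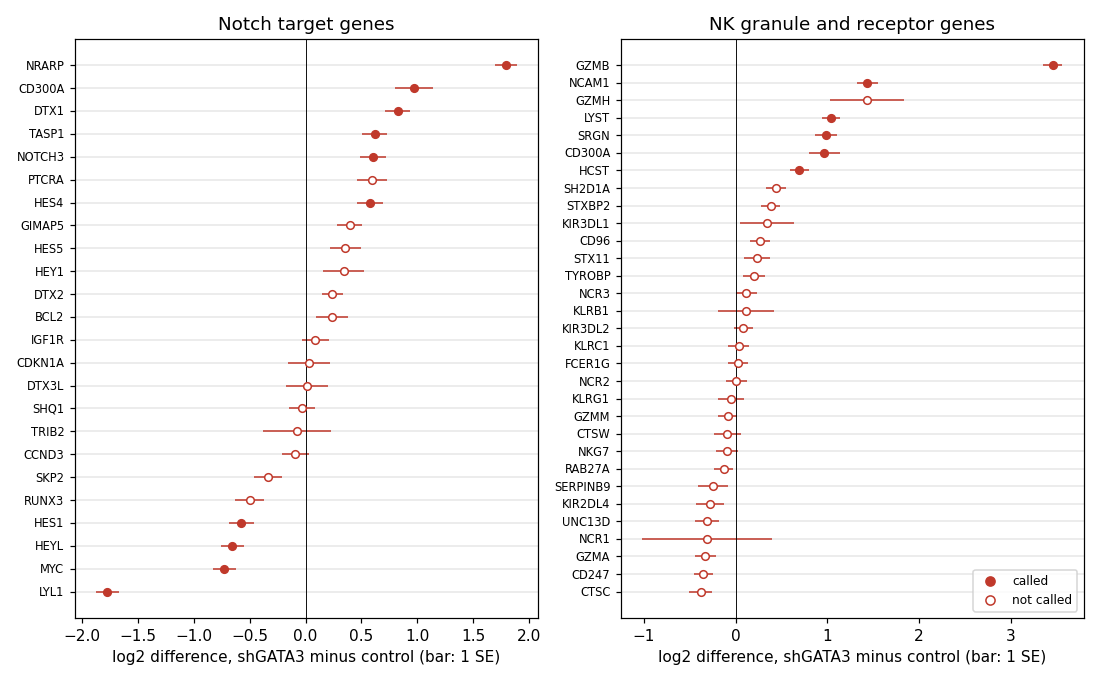
Log2 difference, shGATA3 minus control, of the 24 tested Notch target genes (left) and of the NK granule and receptor genes (right), with 1 SE as the bar, and filled marks where limma called the gene. NRARP lies at 1.79 and LYL1 at -1.77, and GZMB at 3.46 stands apart from the other granule genes.

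Genes of the T-cell receptor complex and its proximal signalling were mixed, with 3 of 38 higher and 6 lower (median -0.21). These shares were 7.89% and 15.8%, against 2.91% and 4.31% of all genes. PTPN6, the inhibitory phosphatase SHP-1, read 8.11 and 8.09 against 8.95 and 9.10 (log2 0.93), and SLA, an adaptor that lowers receptor levels on thymocytes, read 9.33 and 9.36 against 8.30 and 8.15 (log2 -1.12, adjusted p = 0.00764). PAG1, which anchors the kinase CSK, fell by 1.67 (-0.59 with normexp), and RASGRP1, the activator of RAS below the receptor, by 0.87. The adaptor LAT and the phosphatase UBASH3B rose by 0.66 and 0.77. SLA held, PTPN6 and PAG1 were lost (adjusted p up to 0.0604 and 0.0512) when control replicate 1 was left out, and RASGRP1, LAT and UBASH3B were lost without any 1 array, so that the counts were 0, 1, 1 and 1 higher and 1, 1, 3 and 2 lower.

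Of 16 T-lineage surface markers 2 were higher and 3 lower. CD1B, a lipid-presenting molecule of cortical thymocytes, stayed dim on control arrays (3.73 and 3.57, not well above background). It reached 5.66 and 5.70 on the shGATA3 arrays, at least 2.80-fold higher (1.55-fold with normexp), and held. CD2 and CD28, both costimulatory receptors, fell by 0.47 and CD52 by 1.06, while CD99 rose by 0.60. CD3D, CD3G and PTCRA were 0.81, 0.62 and 0.60 higher without a call (adjusted p = 0.135, 0.0602 and 0.0538). DNTT, the terminal transferase of V(D)J recombination, rose by 0.73, the only call among 15 genes for recombination and end joining, and was lost without any 1 array (up to 0.141), as were CD2, CD28 and CD99 (up to 0.213). CD52 was lost without either control array.

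T-lineage transcription factors gave 1 of 23 higher and 3 lower. SATB1, a chromatin organizer of thymocytes, read 8.10 and 8.34 against 9.74 and 9.32 (log2 1.31) and was lost without shGATA3 replicate 1 or control replicate 1 (adjusted p up to 0.0839). IKZF2, which encodes Helios, fell by 0.75 and was kept only without shGATA3 replicate 1 (up to 0.12 otherwise), and ETS2 fell by 0.55 and was lost without any 1 array. Of the 6 tested GATA factor and FOG genes 0 were called by limma, and 1, which was lower, at an unadjusted p below 0.05. The 31 genes of TCF/LEF factors and the Wnt pathway gave 3 calls, all higher, namely NKD2, the Wnt antagonist DKK1 (5.72 and 5.65 against 6.94 and 6.75) and the corepressor TLE1 (0.49). DKK1 and TLE1 were lost without any 1 array (up to 0.0616 and 0.198).

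Of 17 tested TAL1, LMO and E-protein genes 4 fell, LYL1 and CBFA2T3 among them, 1 rose and 12 were not called (median -0.13). The E-protein gene TCF4 fell from 12.09 and 12.22 to 11.34 and 11.37 (log2 -0.80) and the repressor gene GFI1B by 1.14, while LMO1, the oncogene activated in this line, rose from 14.18 and 14.17 to 14.99 and 14.96 (log2 0.80). TAL1 itself differed by -0.14 (adjusted p = 0.453). Only LYL1 and CBFA2T3 held. LMO1 and TCF4 were lost without any 1 array (adjusted p up to 0.0848 and 0.0707) and GFI1B without every array but shGATA3 replicate 2 (up to 0.185).

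Stem and progenitor genes gave 5 calls in 24, all lower, with counts of 1, 1, 2 and 2 without 1 array. They were HHEX, GFI1B, MECOM, a zinc-finger oncogene of stem cells (10.66 and 10.66 against 9.93 and 9.86), the myeloid factor SPI1 (-0.65) and AVP (-0.87). HHEX held, MECOM was lost without every array but shGATA3 replicate 1 (adjusted p up to 0.0926), and SPI1 and AVP without any 1 array. CD34 differed by -0.42 (adjusted p = 0.154). Calls lower made up 20.8% of this list and 23.1% of the MYC network, against 4.31% of all genes. In the MYC network 3 of 13 genes fell, MYC from 12.20 and 12.23 to 11.56 and 11.41 (log2 -0.73, adjusted p = 0.018), MXD1 (-1.01) and MYCL (-1.11), with counts of 0, 1, 2 and 0 (adjusted p up to 0.104 for MYC).

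Markers of other blood lineages were present on both groups of arrays and moved gene by gene. In the myeloid list 3 of 14 rose (among them the serine protease CTSG by 1.07 and S100A9 by 1.04) and 3 fell (OLFM4, SPI1 and PRSS57). The summed normalized level of the list was 41380 to 42380 on control and 74770 to 78480 on shGATA3 arrays, while the defining markers CD33, CEBPA and CSF2RA were not well above background on any array. CTSG was lost without control replicate 1 (adjusted p = 0.0662), and S100A9 was kept only without shGATA3 replicate 1. Of the falls OLFM4 held, and SPI1 and PRSS57 were lost without any 1 array. PRSS57, dim on both shGATA3 arrays and at least 1.89-fold lower, was also lost under all 3 other scalings.

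In the B-cell list 1 of 13 rose, the complement receptor CR2 (12.88 and 12.74 against 14.12 and 14.04, log2 1.27), which held with both probes called. FAM30A, VPREB1, a surrogate light chain (-1.002), and POU2AF1 (-0.88) fell, with counts of 1, 2, 3 and 2. The summed level was 19290 to 23750 on control and 27730 to 29040 on shGATA3 arrays, and CD22, CD74 and EBF1 were not well above background on any array. The 13 erythroid, megakaryocyte and mast cell genes and the 11 fibroblast and epithelial genes gave 0 calls by limma, with 1 gene of the former at an unadjusted p below 0.05, and GATA1, HBB, COL1A2 and EPCAM were at background throughout. Their summed levels were lower on the shGATA3 arrays, 18450 to 18500 against 22550 to 24080 for the former list and 7659 to 7757 against 8695 to 8758 for the latter. The part of other cells in these results was not tested.

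Adhesion and trafficking genes changed singly. Among 33 leukocyte adhesion genes CD44 and the laminin-binding integrin chain ITGA6 (10.95 and 11.11 against 9.73 and 9.64, log2 -1.34) fell and held, CD2 and TSPAN7 (-0.71) fell and were lost without any 1 array, and NCAM1, CD99 and ITGAL, the LFA-1 alpha chain (1.13), rose. KLF2, the factor that sustains the receptors by which T cells leave the thymus, rose from 7.17 and 7.29 to 8.63 and 8.65 (log2 1.41, adjusted p = 0.00293) and held. Of the 23 trafficking genes CXCR5 (0.80) and KLF6 (0.77) also rose, and FOXO1 (-0.58), ACKR3 (-0.70) and S1PR5 (-0.87) fell, of which only S1PR5 was kept in any fit without 1 array. ITGAL was kept only without control replicate 2. The cadherin-family gene FAT1 rose by 1.14 and held.

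Cytokine receptors of the common gamma chain family moved apart. IL2RB, a signalling chain of the interleukin receptors for T and NK cell growth, read 7.81 and 7.94 against 6.74 and 6.64 (log2 -1.18, adjusted p = 0.0055), and IL9R 9.55 and 9.30 against 8.22 and 8.12 (log2 -1.26). Both held. IL2RG, the shared gamma chain, rose from 12.20 and 12.25 to 13.21 and 13.00 (log2 0.88) and was kept only without shGATA3 replicate 2. Over all 39 genes of cytokine receptors and JAK-STAT signalling 3 rose and 5 fell, with counts of 0, 0, 1 and 1 higher and 2, 3, 4 and 4 lower. IL17RA rose by 0.81, all 3 of its probes being called, and IL10RA, dim on both control arrays, was at least 1.90-fold higher. IL4R and TGFBR1 fell by 0.80 and 1.16 (-0.53 and -0.51 with normexp), and IL6R, dim on both shGATA3 arrays, was at least 1.93-fold lower.

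2 receptors of the tumour necrosis factor family went opposite ways. TNFRSF14, the entry mediator HVEM, read 6.0 and 5.82 against 7.23 and 7.18 (log2 1.29), and TNFRSF8, which encodes CD30, 10.60 and 10.61 against 8.97 and 8.94 (log2 -1.65, adjusted p = 0.0018). Both held, and 10 genes of this list were tested.

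Replication-dependent histone genes were the list with the largest share of calls. These genes sit in clusters and their transcripts, made in S phase, end in a stem-loop rather than a poly(A) tail. Of 63 tested 38 were higher and 0 lower (48 and 0 at an unadjusted p below 0.05), 60.3% against 2.91% of all genes, with a list median of 0.65 against -0.03. The median level of the 63 genes was 13.14 and 13.11 on the control arrays and 13.76 and 13.74 on the shGATA3 arrays. By class, 16 of 17 H2B genes, 11 of 15 H2A genes, 8 of 14 H4 genes, 2 of 12 H3 genes and 1 of 5 H1 genes were called.

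H3C15 changed most, from 13.16 and 13.37 to 15.27 and 15.41 (log2 2.08, adjusted p = 0.00199), followed by H4C11 (11.95 and 11.94 against 13.41 and 13.54), H4C6 (10.69 and 10.65 against 11.86 and 12.06) and H2AC1 (1.27). The first 3 held, and H2AC1 was kept only without shGATA3 replicate 2. Genes of one class are near-identical copies, and a probe may read several of them, so that the 38 calls are not 38 independent measurements. Without 1 array 9, 14, 26 and 15 histone genes were called, and 40, 36 and 46 with the 3 other scalings.

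The shTCF1 arrays carried similar histone levels. Their medians were 13.59 and 13.62, between the other groups and nearer to shGATA3. Against the same control arrays they gave 38 histone genes higher and 0 lower, 6.25% of all genes being higher in that comparison. Between shGATA3 and shTCF1 arrays 0 histone genes were higher and 1 was lower, against 3.86% and 2.80% of all genes, with a median of 0.11. Because both hairpin groups share the control arrays, whose slide column and brightness also differ, the histone difference cannot be told apart from a difference of the control arrays.

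**Figure D4:**
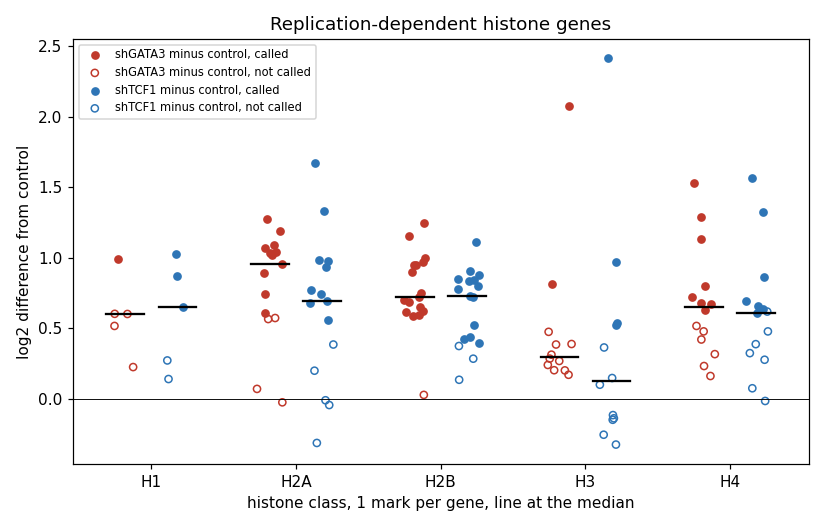
Log2 difference from control of each tested replication-dependent histone gene by class (x axis), for shGATA3 and for shTCF1, which share the 2 control arrays. Filled marks were called, and the lines at the class medians lie at 0.96 for H2A, 0.72 for H2B, 0.30 for H3 and 0.65 for H4 on the shGATA3 arrays.

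Other growth genes gave few or no calls. The variant histones, made outside S phase, gave 0 calls in 13 genes by limma, with 5 higher and 1 lower at an unadjusted p below 0.05. Of these 13 genes 10 lay above 0, with a median of 0.19. The medians of the DNA replication and mitosis lists were -0.115 and -0.018. Of 60 DNA replication and S phase genes 1 was called, the clamp loader subunit RFC3, which fell (-0.62, lost without any 1 array). Of 54 mitosis genes 0 were called, with 2 higher and 6 lower at an unadjusted p below 0.05. E2F3 (-0.52) and CCNG1 (-0.65) were the 2 of 21 cyclins, CDKs and inhibitors that fell, and neither was called without any 1 array.

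GADD45G rose without its relatives. GADD45A read 11.44 and 11.47 against 11.78 and 11.76 (adjusted p = 0.102) and GADD45B 10.05 and 10.11 against 9.82 and 10.04. MAPK14, the kinase p38 alpha, listed as a signalling partner of the GADD45 family, fell by 0.73 and was kept only without shGATA3 replicate 1. Of 29 p53 target genes PLK3 rose by 0.67 and CCNG1 fell by 0.65, and both were lost without any 1 array.

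Among 40 BCL2 family and caspase genes 2 were called, both higher (5%, against 2.91% of all genes). They were the BH3-only killers BMF (10.02 and 10.15 against 11.23 and 11.37, log2 1.21, adjusted p = 0.00586) and BIK (0.82). The list had a median of 0.03, with 4 higher and 6 lower at an unadjusted p below 0.05. Its lowest member, BNIP3 (-2.34), was not called. With normexp 3 genes were called higher and 5 lower. BMF held with both probes called, and BIK was lost without any 1 array (up to 0.103).

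Immediate early and NF-kB genes gave 6 calls in 36, all lower, with counts of 0, 0, 1 and 1. JUN read 7.91 and 7.93 against 7.09 and 7.08 (log2 -0.84, adjusted p = 0.0096) and was lost without either control array (up to 0.066). NFKBIZ, dim on both shGATA3 arrays, was at least 2.53-fold lower, SPRY1 fell by 0.65 and DUSP2 by 0.62, and these 3 were lost without any 1 array. ATF3 and MTHFD2 fell by 0.61 and 0.50 and ATF5 rose by 0.67, the 3 calls among 38 stress genes of the unfolded protein response and ATF4, and 2 of 20 chaperone genes fell (HSP90AB1 by 0.44 and AHSA1 by 0.57). None of these 5 was called without any 1 array.

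Glycolysis and hypoxia genes were lower as far as they were called, with 6 of 40 lower and a median of -0.28. ME3 held. HK2, the inducible hexokinase, fell from 9.81 and 10.08 to 8.999 and 9.03 (log2 -0.93), HK1 by 0.71 and ADM by 0.64. PDK1, which holds pyruvate out of the mitochondria, read 7.81 and 8.66 against 6.69 and 6.33, and PFKFB3 7.35 and 8.31 against 6.56 and 6.31. BNIP3, a hypoxia-induced mitophagy receptor, read 8.43 and 10.07 against 6.83 and 6.995 and was not called (adjusted p = 0.0608). Control replicate 2 was the higher of the 2 controls for all 4 of HK2, PDK1, PFKFB3 and BNIP3, and without it 1 gene of the list was called, as without either shGATA3 array, against 6 without control replicate 1. PDK1, PFKFB3 and HK2 then had adjusted p-values up to 0.141, 0.189 and 0.0813.

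In ATP and adenosine metabolism ENTPD2 rose, and the adenosine receptor genes ADORA2A (8.36 and 8.36 against 7.55 and 7.58) and ADORA2B and the deaminase AMPD3 (-1.17) fell, 4 calls among 15 genes. ADORA2A was lost without any 1 array (adjusted p up to 0.084), ADORA2B without either control array and AMPD3 without shGATA3 replicate 2 or control replicate 2. In sterol and fatty acid synthesis 3 of 41 tested genes fell, INSIG1 (-0.81) and MYLIP (-0.44) among them, and ABCA1 rose by 0.57. The counts were 0 higher throughout and 0, 0, 2 and 0 lower.

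Housekeeping families gave few or no calls, though some leaned upward. Above 0 lay 73 of 86 cytosolic ribosomal protein genes (median 0.14) and 62 of 79 oxidative phosphorylation genes (median 0.15), against 6526 of all 14417 genes. The reference genes (8 of 14, median 0.01) and mitochondrial ribosomal protein genes (45 of 77, median 0.05) lay closer to the median of all genes, -0.03. Of 86 cytosolic ribosomal protein genes and 14 reference genes 0 were called by limma, and at an unadjusted p below 0.05 they gave 6 and 2 higher and 2 and 2 lower. For ACTB one probe was 0.29 higher (adjusted p = 0.151) and the other 0.26 lower (adjusted p = 0.167), and GAPDH differed by 0.05. Oxidative phosphorylation gave 2 calls in 79, with 13 higher and 3 lower at an unadjusted p below 0.05, and mitochondrial ribosomal proteins 4 in 77.

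**Figure D5:**
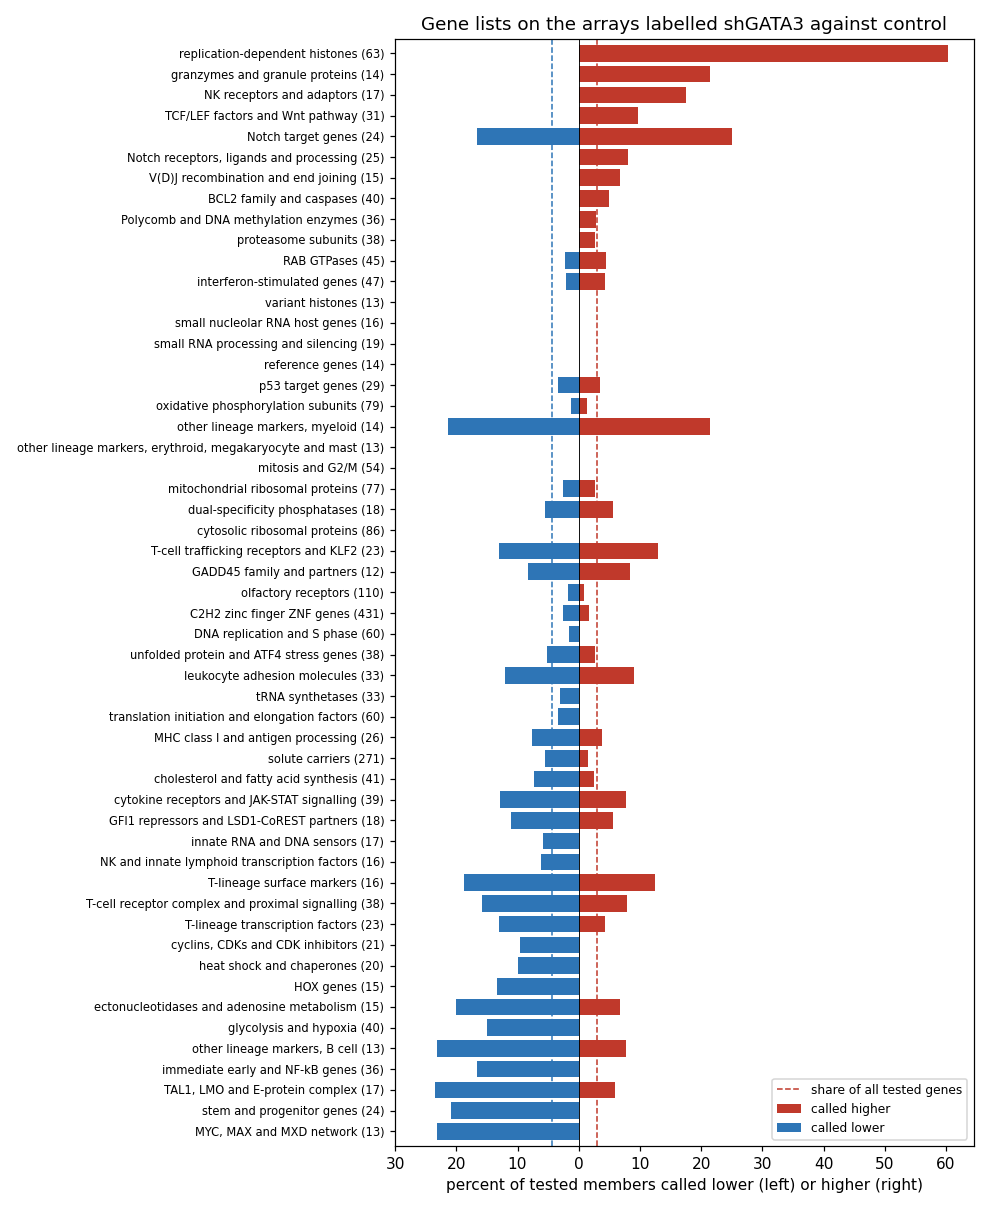
Percent of the tested members of each list (number in parentheses) that were called lower (left) or higher (right) on the shGATA3 arrays, with dashed lines at the shares of all tested genes, 4.31% lower and 2.91% higher. The histone bar reaches 60.3% on the higher side, and no other list drawn passes 25%. Lists with fewer than 12 tested members are left out.

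Some genes were detected in 1 group only, and for these the difference is a bound. Of the called genes, 32 of the 420 higher and 58 of the 621 lower were dim on both arrays of the lower group. Dim on both control arrays and well above background on both shGATA3 arrays were CREB5, HTR2A, NGFR, RNASE6 and PPEF1. CREB5, a CRE-binding factor, was at least 5.13-fold higher, the serotonin receptor HTR2A at least 4.61-fold and the neurotrophin receptor NGFR at least 4.02-fold. RNASE6 was at least 3.17-fold and PPEF1 at least 2.45-fold higher. In the other direction PROCR, the endothelial protein C receptor found on haematopoietic stem cells, read 7.03 and 7.16 on control and 4.49 and 4.52 on shGATA3 arrays. It was at least 6.02-fold lower, SYBU at least 4.86-fold, SCRN1 at least 3.61-fold and GNG11 at least 2.86-fold. PROCR and the higher genes named were also called against the shTCF1 arrays. SYBU, SCRN1 and GNG11 differed from the shTCF1 arrays by -0.78, -0.41 and 0.41 without a call. The bound sets the detected group against the higher of the dim probe and the lowest detected signal of each array. The genes named here held. Each of these probes, like those of CD1B, IL10RA, IL6R, NFKBIZ and PRSS57, entered the test only through the group where it was bright. Their calls, and their holding, are therefore no separate support for a difference. The naming rule also picked genes by their bound that did not hold, and these were left out. Their bounds reached at least 3.56-fold higher and at least 4.65-fold lower, the latter larger than that of SCRN1. The genes named, and CD1B described above, are thus only the part of those picked that held. These bounds apply to the normalization used here. With normexp and its added constant CREB5, HTR2A, NGFR, RNASE6 and PPEF1 were 2.02-, 1.89-, 2.02-, 1.60- and 1.42-fold higher. PROCR, SYBU, SCRN1 and GNG11 were then 2.41-, 1.82-, 1.55- and 1.43-fold lower. All of these lay below the bounds, as did IL10RA, IL6R, NFKBIZ and PRSS57.

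Long noncoding RNAs were covered by 7558 tested custom probes, of which 581 (7.69%) were called, 276 higher and 305 lower. Among probes detected on all 4 arrays the largest rises were the transcripts TCONS_00028388 (6.56 and 6.53 against 9.45 and 9.46, log2 2.91) and TCONS_00028389 (2.68). The largest falls among them were TCONS_00029178 (8.27 and 8.75 against 5.09 and 5.90, log2 -3.01) and ENST00000539404 (7.58 and 7.59 against 4.99 and 5.10, log2 -2.54, adjusted p = 0.000916). TCONS_00029178 was also low on the shTCF1 arrays, at 6.15 and 5.92, and was not called between the hairpin groups (limma adjusted p = 0.333). Against shTCF1, 3 of the 5 largest falls and 5 of the 5 largest rises were called. The share of noncoding probes called was close to that of all probes.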

How the data were processed

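RPMI-8402 cells transduced with control, shGATA3 or shTCF1 were profiled on 6 custom 1-colour Agilent arrays, with group and replicate read from each title. The deposited intensity values were written by Feature Extraction 10.7.1.1 per the file headers (the submitters' processing notes name 9.1), with background subtracted and detrended and no scaling between arrays. The files name the build hg19. A second deposited file held log2 values, VSN-normalized per their methods, with its centring and scale unstated. Its columns for control replicate 1 and shGATA3 replicate 1 followed replicate 2 of their group best (r = 0.999), that for shGATA3 replicate 2 followed replicate 1 no worse than its own array (r = 0.988), and that for control replicate 2 followed its own array with r = 0.758, so that it served only as an alternative. The medians of the 6 columns ran from 4.94 to 5.11. No column of values remained without a sample.

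Control spots and spots marked as outliers were left out, which removed 71 probes. For normalization the VSN model (variance stabilization by an arsinh, close to log2 at high signal), was written anew in R 4.3.3, with a trimming quantile of 0.9. Testing required a signal well above background on both shGATA3 arrays or both control arrays, which left 30841 of 57176 probes. A symbol from RefSeq (GRCh38.p14) was found for 25729 probes through their accession, and a gene was represented by its brightest probe on average over those 4 arrays. Differences were tested with limma 3.58.1, fitting all 6 arrays together with no term but group (3 residual and 3.00 prior degrees of freedom), two-sided, with Benjamini-Hochberg adjustment over all tested probes, and a gene was called at an adjusted p below 0.05. An exact permutation test of 2 arrays against 2 cannot go below 0.333. The procedure was tested on simulated data.

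The rule for named genes took the 20 largest rises and falls among called genes detected on all 4 arrays whose groups did not overlap, up to 4 called members in each direction of 63 gene lists, the 5 largest long noncoding RNA changes each way, the 8 largest bounds each way and GATA3, TCF7, GZMB, GADD45G, CD44, ACTB and GAPDH. A subset of these is described, some results are not reported here, and 18 other genes were named after their values were seen. The members and lists were chosen with earlier results of these data known. A bound was set from the lowest signal well above background on each array of the dim group. Alternatives were 3 other scalings, the deposited matrix, other filters on dim probes, all probes of a gene, a fit to 4 arrays, an intensity trend, a replicate block and leaving out each array.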

Additional observations from a re-analysis of the deposited data

How the results depend on the processing

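The number of calls depended on the processing, and some differences changed sign, mostly in the deposited matrix. The counts in the report were 2211 probes, 1041 genes, 217 members of the gene lists and 38 histone genes. Normexp background correction, with a constant of 50 added, and quantile normalization gave 4296, 2306 and 440 of the first 3. An intensity trend in the variance gave 3923, 2088 and 405. The mean over all probes of a gene gave 1776 genes and 353 list members. Without a filter on dim probes the counts were 560, 282, 72 and 18, since 57105 probes were then tested, and the deposited matrix gave 0 of each (1799 probes at an unadjusted p below 0.05). Leaving out 1 array gave 467 to 1578 probes, 209 to 705 genes, 56 to 163 list members and 9 to 35 histone genes, the highest without an shTCF1 array and the lowest without control replicate 1. The histone count was 40 with 75th percentile scaling, 36 with quantile normalization and 31 with the replicate block.

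With the replicate number as a replicate block 1399 probes, 647 genes and 142 list members were called. The numbers do not pair the arrays: deviations from the group means correlated by -0.04 between control and shGATA3 arrays, -0.01 between control and shTCF1 and 0.05 between the hairpins. A block for slide or scan was not run, since all 6 arrays shared 1 slide and 1 scan.

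The GATA3 probe turned to 0.000468 with 75th percentile scaling. Of 171 genes named in the text, GAPDH turned to -0.088 with quantile normalization and to -0.042 with normexp, and ran from -0.098 to 0.199 when 1 array was left out, and GZMM turned to 0.073 with normexp. In the deposited matrix 24 turned to a positive difference, at 0.88 for PLEKHA6, 2.48 for INSIG1, 1.52 for CCNG1, 0.92 for IL9R, 0.22 for IL2RB, 0.17 for IL6R, 0.94 for DUSP2, 1.21 for ADORA2B, 1.22 for AHSA1, 3.16 for HSP90AB1, 1.63 for SPRY1, 2.69 for CD2, 0.025 for MYCL, 0.89 for MXD1, 1.71 for VPREB1, 0.55 for SPI1, 0.97 for AVP, 1.63 for RASGRP1, 2.24 for CD52, 2.67 for ETS2, 2.92 for ATF3, 0.38 for MTHFD2, 0.76 for SCRN1 and 2.24 for GADD45B. The cause was not tested. No other difference named in the text changed sign in any alternative.

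The signal limits these results. The control arrays were brighter before normalization, slide column and hairpin cannot be told apart, and probes dim in 1 group give only a bound.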

Other observations

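Large gene families beyond those described above gave calls at shares near or below those of all genes (2.91% higher and 4.31% lower). Of 271 tested solute carrier genes, which move nutrients and ions across membranes, 4 rose (1.48%) and 15 fell (5.54%), and leaving out control replicate 1, control replicate 2, shGATA3 replicate 1 or shGATA3 replicate 2 left 1, 1, 2 and 1 higher and 4, 4, 4 and 1 lower. SLC22A16, a carnitine carrier, rose from 10.97 and 11.05 on the control arrays to 12.47 and 12.38 on the shGATA3 arrays (log2 1.42, SE 0.111, limma adjusted p = 0.00396), and SLC43A3, a nucleobase carrier, fell from 9.69 and 9.48 to 8.44 and 8.41 (log2 -1.16). Both were called in all 4 of these fits. Of 431 tested zinc-finger ZNF genes 7 rose (1.62%) and 11 fell (2.55%), ZNF750 first among the rises, and ZNF630 (-1.22) and ZNF471 (-1.06) fell in all 4 fits.

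Of 15 tested HOX genes 2 fell and 0 rose, HOXB5 and HOXB2, with a list median of -0.28 (4 of 15 above 0). Neither HOXB5 nor HOXB2 was called in all 4 fits. The HOXB2 probe used differed by -0.735, and another, dim on both shGATA3 arrays, by -2.42. Antigen presentation gave 1 fall among 10 MHC class II genes, HLA-DQB1 (7.83 and 7.65 against 6.41 and 6.62, log2 -1.23), called by 1 of its 2 probes, and ULBP1, a stress-induced ligand of the NK receptor NKG2D, fell from 6.09 and 6.18 to 5.07 and 5.06 (log2 -1.07). HLA-DQB1 and ULBP1 were called in all 4 fits. Of 47 interferon-stimulated genes MX1 (0.70) and RSAD2 (0.57) rose and EPSTI1 (-1.03) fell, and without 1 array 0, 0, 0 and 0 higher and 0, 1, 0 and 0 lower calls were left in the order above. Of 110 tested olfactory receptor genes 1 rose and 2 fell.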
